A study of Mus musculus with 6 samples.

Results

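Fatty acid and triglyceride synthesis in the mouse adrenal gland was described for 10 genes, chosen by name: Srebf1, Acly, Acaca, Fasn, Scd1, Scd2, Elovl6, Gpam, Dgat1 and Me1. All probe sets that the platform annotation assigned to each symbol were taken, which gave 14 probe sets of 9 genes, out of 12422 probe sets and 8251 named genes. No probe set carried the symbol Acaca in that annotation, and Acaca, which encodes the acetyl-CoA carboxylase of the cytosol, was not analysed here. The tested animals were 3 male mice of 12 weeks that lack chromogranin A (Chga knockout), and they were set against 3 male wild-type mice of the same age, with 1 single-colour array of adrenal RNA per animal. Both lines carry the same literature reference in the labels, and the sources used here give neither their genetic background nor their feeding state. Whole glands were used, so that a smaller number of cells of a type and less RNA per cell cannot be told apart, and RNA of fat adhering to the gland would be read together with that of the gland.

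Cells build fatty acids in the cytosol from acetyl-CoA, which ATP citrate lyase frees from citrate, and fatty acid synthase joins the units with NADPH supplied in part by malic enzyme. Elongases and stearoyl-CoA desaturases then lengthen the chain and add a double bond, and acyltransferases of the Gpam and Dgat kinds place the chains on glycerol to form triglyceride. SREBP-1, the product of Srebf1, is the transcription factor best known for raising this set of genes, while its relative SREBP-2 acts mainly on cholesterol synthesis. Adrenal cortex cells hold lipid droplets rich in cholesteryl ester, and white and brown fat, which surround the gland, express lipogenic genes strongly.

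None of the 9 genes differed between the genotypes past the threshold. Values are MAS5 signals, which the authors had scaled to a common target on each array. The comparison was run in limma on log2(signal + 16) over all 7453 probe sets of sufficient brightness, with Benjamini-Hochberg adjustment and a threshold of 0.05. In that test 0 of the 9 genes passed, by the brightest probe set of each, and 1, Gpam, had an unadjusted p under 0.05. Over all probe sets tested, 33 passed, which is 0.443% (0.161% higher and 0.282% lower in the knockout), and 11.3% had an unadjusted p under 0.05, so that the count among the 9 genes lies near the background. The median log2 change of the 9 genes was -0.01, with 4 above and 5 below 0, and the median over all tested probe sets was -0.01. The genotype itself was plain in Chga, whose brighter probe set read 1188, 858 and 951 in knockout glands against 46719, 30213 and 35306 in wild-type glands (limma adjusted p = 5.29e-06).

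The promoters of the gene whose groups did not overlap (Gpam, with its 2 annotated starts), of the synthase gene Fasn, and of Hmgcs1, a cholesterol synthesis gene that fell in the same comparison, are printed for orientation. Each runs from 250 bases before to 50 bases after the start, 5′ to 3′ on the gene's own strand, from RefSeq with build GRCm38.p6. Capitals mark matches, on either strand, to a sterol regulatory element (TCACNCCAC), an E-box with the letters CACGTG, the box that reads CCAAT, and a GC box with the letters GGGCGG.
Gpam, first start, chr19:55127189-55127488, minus strand: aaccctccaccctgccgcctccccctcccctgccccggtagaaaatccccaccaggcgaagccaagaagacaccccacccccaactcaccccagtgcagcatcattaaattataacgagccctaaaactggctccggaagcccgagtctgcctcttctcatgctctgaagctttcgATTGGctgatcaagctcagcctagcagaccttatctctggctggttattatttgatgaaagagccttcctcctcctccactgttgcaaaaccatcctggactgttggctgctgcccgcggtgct
Gpam, second start, chr19:55099428-55099727, minus strand: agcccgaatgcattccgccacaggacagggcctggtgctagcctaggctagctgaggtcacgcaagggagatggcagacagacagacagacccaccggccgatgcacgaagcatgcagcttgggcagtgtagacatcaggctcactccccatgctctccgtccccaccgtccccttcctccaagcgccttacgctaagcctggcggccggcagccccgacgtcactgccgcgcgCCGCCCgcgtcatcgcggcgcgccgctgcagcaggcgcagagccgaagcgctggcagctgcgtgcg
Fasn, chr11:120824498-120824797, minus strand: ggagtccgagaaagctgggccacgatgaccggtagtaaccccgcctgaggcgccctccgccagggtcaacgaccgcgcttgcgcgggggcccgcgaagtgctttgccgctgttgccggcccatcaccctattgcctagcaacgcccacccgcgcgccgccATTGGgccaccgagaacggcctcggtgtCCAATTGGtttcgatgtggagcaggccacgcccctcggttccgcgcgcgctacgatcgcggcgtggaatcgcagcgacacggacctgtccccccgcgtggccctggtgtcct
Hmgcs1, chr13:119690101-119690400, plus strand: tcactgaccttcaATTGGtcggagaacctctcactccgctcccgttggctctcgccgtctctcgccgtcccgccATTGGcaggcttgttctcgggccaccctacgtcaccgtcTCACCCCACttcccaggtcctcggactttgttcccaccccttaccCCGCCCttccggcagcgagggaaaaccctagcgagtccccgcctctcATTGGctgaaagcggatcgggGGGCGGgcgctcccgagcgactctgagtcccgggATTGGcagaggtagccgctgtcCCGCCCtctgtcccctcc

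The sterol regulatory element was found once in the Hmgcs1 window, as TCACCCCAC, and in neither Gpam window nor that of Fasn. Over 32851 mouse promoter windows of the same length, 1.24% held this motif, 7.15% the E-box, 37.4% the CCAAT box and 35.7% the GC box. Promoter windows were found for 7 of the 10 lipogenic genes, 11 windows in all, and 0 of the 7 genes had the element there, against 1 of 13 sterol genes with a window. That sterol gene was Hmgcs1, printed above. Only exact letters were searched, and most sterol genes also lacked a match. The search therefore cannot show that a promoter lacks such an element, nor tell the lists apart. The Fasn window held 3 CCAAT matches, of which a pair overlap as CCAATTGG and read as a match on each strand. The first Gpam window held 1 CCAAT match and the second 1 GC box. A match is a description of letters, and none of these windows was assayed in these mice.

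Srebf1 (probe set 93264_at), the regulator of the pathway, read 11130, 17962 and 11548 in Chga knockout glands and 9466, 10230 and 12039 in wild-type glands. The high value belonged to knockout array 2, and the other knockout arrays lay inside the wild-type range, so the groups overlapped. The log2 change was 0.33 ± 0.20 (SE), with a 95% confidence interval of -0.12 to 0.78, and did not pass (limma adjusted p = 0.56). The interval spans folds of 0.920 to 1.71.

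The genes of the enzymes that supply carbon and reducing power did not pass either. Acly (160207_at), which encodes ATP citrate lyase, read 50248, 80047 and 42595 in knockout glands and 63161, 78122 and 58969 in wild-type glands. Knockout array 2 was the brightest of the 6 and knockout array 3 the dimmest, and the log2 change of -0.25 ± 0.22 did not pass (limma adjusted p = 0.701). Me1 (101082_at), the cytosolic malic enzyme, read 45428, 49388 and 47150 in knockout glands and 41946, 52281 and 51885 in wild-type glands. All 3 knockout values of Me1 lay within the wild-type range. Me1 had the narrowest confidence interval of the 9 genes, -0.32 to 0.25 on the log2 scale or folds of 0.802 to 1.19, around a change of -0.04 (limma adjusted p = 0.944).

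Fasn (98575_at), the fatty acid synthase gene, read 8475, 20775 and 13738 in knockout glands and 10435, 18075 and 15392 in wild-type glands. The lowest and the highest of the 6 values were both knockout arrays, and the spread inside the knockout, 2.45-fold, was larger than the difference of the means, 14329 ± 6171 in knockout against 14634 ± 3876 in wild-type glands (SD, n = 3 each). The log2 change was -0.09 ± 0.31 (SE, limma adjusted p = 0.944), with an interval of folds from 0.575 to 1.54. Elovl6, the elongase that extends palmitate, was read by a pair of probe sets. The brighter one (103665_at) gave 1487, 2419 and 2217 in knockout glands and 934, 1814 and 1939 in wild-type glands, and the other (94418_at) gave 987, 1584 and 1219 in knockout glands and 851, 1282 and 1675 in wild-type glands. The log2 changes were 0.42 ± 0.31 and 0.02 ± 0.30 (SE), with overlapping groups on each, and neither passed (limma adjusted p = 0.649 and 0.986).

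**Figure D1:**
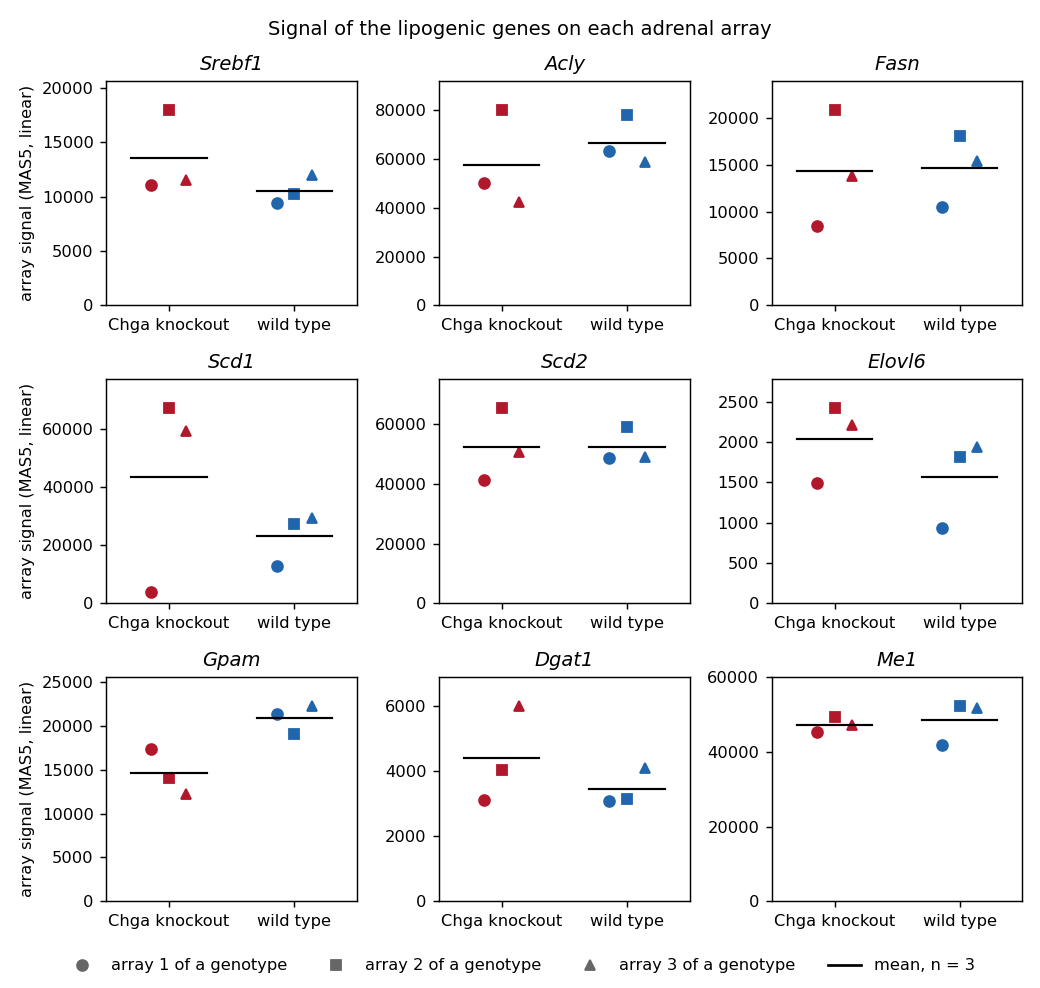
MAS5 signal (linear, y axis from 0) of the brightest probe set of each gene on the 3 Chga knockout and 3 wild-type arrays, with marker shape for the array number within a genotype and a line at the mean of 3. Scd1 on knockout array 1 (3788) stands far under the other knockout arrays (66940 and 59036), and only Gpam has all knockout arrays below all wild-type arrays.

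The desaturase genes Scd1 and Scd2 encode enzymes with the same reaction, and they spread very differently. Scd1 (94056_at) read 3788, 66940 and 59036 in Chga knockout glands and 12766, 27164 and 29307 in wild-type glands. The knockout thus held both extremes of the 6 arrays: array 1 lay below all wild-type arrays, and arrays 2 and 3 lay above all of them. Within the knockout the highest array exceeded the lowest 17.7-fold, against 2.30-fold within the wild type. The second Scd1 probe set (94057_g_at) repeated this pattern, with 1943, 44702 and 47614 in knockout glands and 4933, 19512 and 12905 in wild-type glands, a spread of 24.5-fold in the knockout against 3.96-fold in the wild type. The third (94058_r_at) was dim, with 442, 54.6 and 345 in knockout glands and 216, 317 and 128 in wild-type glands, and was left out of the test by the brightness filter.

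With such a spread the Scd1 comparison had little precision. The log2 change was 0.19 ± 0.94 (SE) on the brightest probe set, with an interval of folds from 0.262 to 4.96 (limma adjusted p = 0.961), and 0.58 ± 1.09 on the second (adjusted p = 0.875). The value turned with the arrays used: it was 1.54 without knockout array 1 (adjusted p = 0.0563) and -2.51 when knockout array 1 was the sole knockout array in the fit (adjusted p = 0.185), where that lone array is assumed to vary like the wild-type arrays. Knockout arrays 2 and 3 also had the higher 3′ to 5′ signal ratios of the Gapdh control transcript, 1.30 and 1.29 against 0.831 on knockout array 1 and 0.762 to 0.806 on the wild-type arrays, and with that ratio as a covariate the Scd1 change was -2.94 (adjusted p = 0.0987). Since the ratio was high on knockout arrays 2 and 3 only, that fit rests largely on knockout array 1 against the wild type. It cannot separate the ratio from other differences of those arrays, and the part of RNA quality in the Scd1 values was not tested.

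Scd2 (95758_at), by contrast, read 41244, 65183 and 50604 in knockout glands and 48464, 58958 and 48864 in wild-type glands, with overlapping groups. Its log2 change was -0.01 ± 0.17 (SE), with folds of 0.755 to 1.30 inside the interval (limma adjusted p = 0.985). The second Scd2 probe set (162077_f_at), of a type that can share probes with related genes, read 18818, 22165 and 23097 in knockout glands and 21745, 26764 and 24279 in wild-type glands (log2 change -0.18 ± 0.14, adjusted p = 0.65). Both Scd2 probe sets were also lowest on knockout array 1, below every wild-type array, but the spread within the knockout was 1.58-fold and 1.23-fold.

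**Figure D2:**
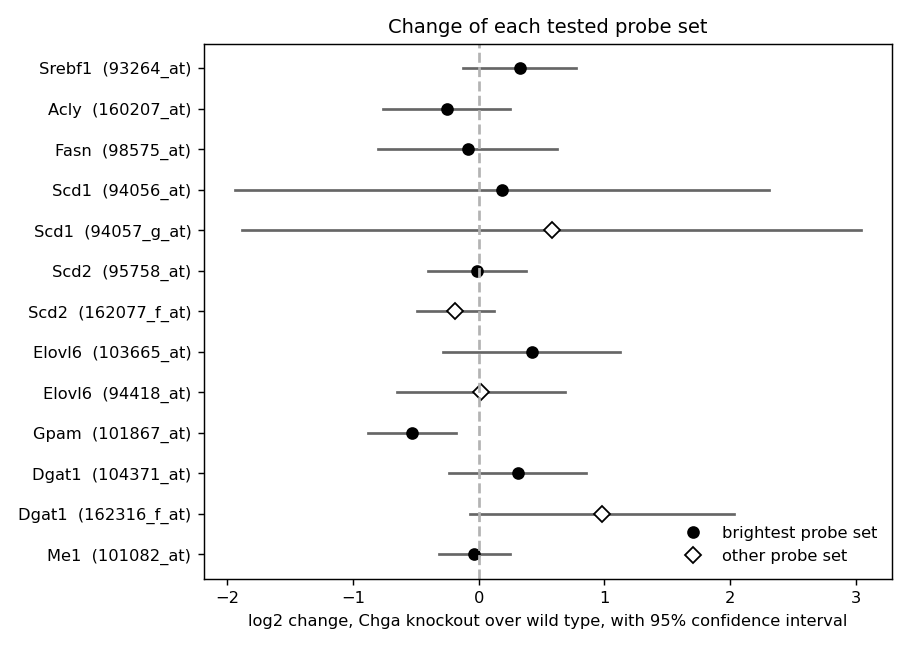
Log2 change, Chga knockout over wild type, of the 13 tested probe sets with 95% confidence intervals from limma; filled circles are the brightest probe set of a gene and open diamonds the others. The intervals of Scd1 reach from -1.93 to 2.31 and from -1.88 to 3.04, while that of Gpam, -0.88 to -0.18, lies below 0 before adjustment.

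Gpam (101867_at), the mitochondrial glycerol-3-phosphate acyltransferase that takes the first step of triglyceride assembly, read 17363, 14098 and 12219 in Chga knockout glands and 21295, 19056 and 22215 in wild-type glands. All 3 knockout values lay below all 3 wild-type values, and the means were 14560 ± 2603 in knockout and 20855 ± 1625 in wild-type glands (SD, n = 3 each). The log2 change was -0.53 ± 0.15 (SE), a fold of 0.693 with an interval of 0.545 to 0.881, and its unadjusted p was 0.00714, but it did not pass over all probe sets (limma adjusted p = 0.27). Of the 9 genes 1 had groups that did not overlap, where 16.4% of all tested probe sets had such groups, 7.55% with all knockout arrays above and 8.83% with all below, so this count is near the background. The Gpam value stayed negative in all 20 other settings, between -0.66 and -0.24, and passed in none of them (adjusted p from 0.0575 to 0.998).

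Dgat1, which adds the last acyl chain of triglyceride, was read by 2 probe sets with higher knockout means. The brighter (104371_at) gave 3121, 4044 and 5986 in knockout glands and 3072, 3147 and 4090 in wild-type glands, a log2 change of 0.31 ± 0.24 (SE, limma adjusted p = 0.666). The dimmer (162316_f_at) gave 849, 728 and 1223 in knockout glands and 936, 366 and 268 in wild-type glands, a log2 change of 0.98 ± 0.46 (adjusted p = 0.474). Its wild-type mean, 524, lay under the filter's signal near 582. It was thus tested only through its knockout values, which favoured a positive change. The groups overlapped on both, and the brighter probe set had a change of -0.13 in the fit whose sole knockout array was array 1.

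The spread between arrays of one genotype was wide for several of these genes, and it followed particular arrays. For 7 of the 9 genes, Srebf1, Fasn, Scd1, Scd2, Elovl6, Dgat1 and Me1, the lowest knockout value was on knockout array 1 and the lowest wild-type value on wild-type array 1, a pattern that 17.0% of all tested probe sets had. The median of the 9 genes, each taken relative to the mean of its own genotype on the log2 scale, was -0.32 on knockout array 1, 0.34 on array 2 and -0.0044 on array 3, and -0.15, 0.18 and 0.11 on the wild-type arrays. Acly was lowest on array 3 of each genotype, and Gpam on knockout array 3 and wild-type array 2. The pooled SD between arrays of one genotype ran from 0.13 for Me1 to 1.72 for Scd1 on the log2 scale, against a median of 0.25 over all tested probe sets. Scd1 lay at the percentile of 99.9 of that spread, Fasn at 90.8, Elovl6 at 87.4, Dgat1 at 75.5, Acly at 74.8, Srebf1 at 62.4, Scd2 at 53.1, Gpam at 34.1 and Me1 at 14.8.

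**Figure D3:**
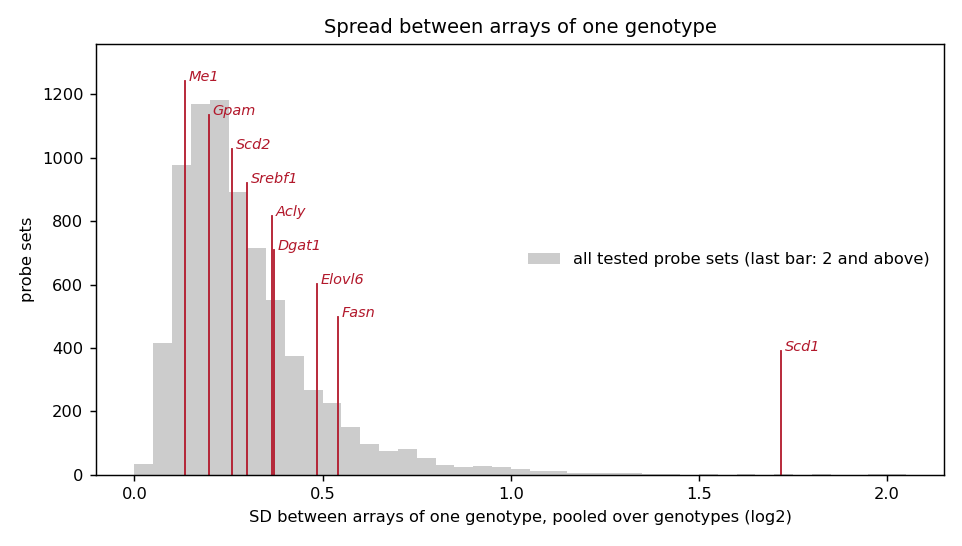
Histogram of the SD between arrays of one genotype (log2 scale, pooled over genotypes) for all 7453 tested probe sets, with the 9 genes marked as red lines whose heights carry no value. Scd1, at 1.72, lies in the far tail, and Me1, at 0.13, at the low end.

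Fat markers were examined beside these genes, since fat expresses them. Of 10 white fat markers 8 were on the array and were tested, with 0 past the threshold. For 1, Cidec, a lipid droplet protein of fat cells, all knockout arrays lay above all wild-type arrays (log2 change 0.93, limma adjusted p = 0.271). Such groups were found for 7.55% of all tested probe sets. Adipoq, the adiponectin gene, read 18419, 32112 and 31932 in knockout glands and 12806, 13911 and 27874 in wild-type glands, so the defining white fat marker was bright on every array. The summed signal of the 8 markers was 48293, 69787 and 64597 in knockout glands and 40276, 45914 and 60636 in wild-type glands. Lep, Cebpa and Adig, further markers of high signal, had log2 changes of 0.40, 0.13 and 0.17 (limma adjusted p = 0.544, 0.812 and 0.72). Retn, the fat hormone resistin, was lowest on knockout array 1, as Scd1 was, with 964, 4613 and 3302 in knockout glands and 2962, 5553 and 5082 in wild-type glands. The other white fat markers were divided there. Adipoq, Lep (6128, 7127 and 7359) and Cebpa were also lowest on array 1 within the knockout, though not below every wild-type array. By contrast, on knockout array 1 Cidec read 2557, above every wild-type array, and Adig (4420) and Pparg (1135) had their highest value of the 6 arrays.

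The brown fat markers differed in which array was lowest. Ucp1, the uncoupling protein that defines brown fat, read 874, 8661 and 3496 in Chga knockout glands and 2344, 10047 and 8955 in wild-type glands, with array 1 lowest in each genotype. Of 7 brown fat markers 6 were on the array, 4 were tested and 0 passed, with log2 changes of -0.99 for Ucp1, 0.21 for Cox8b, -0.11 for Cox7a1 and -0.03 for Cidea. Within the knockout, those other 3 were lowest on array 3 and not on array 1, with 13071, 15774 and 8364 for Cidea, 2650, 3491 and 2445 for Cox7a1, and 12181, 18462 and 10905 for Cox8b. The dim, untested Dio2 (368, 487 and 505) and Ppargc1a (31.1, 50.3 and 147) were lowest on knockout array 1, as was the second Ucp1 probe set (481, 1084 and 1268). Within the wild type, Cidea and Cox8b were lowest on array 1, as Ucp1 was, and Cox7a1 on array 3. The summed signal of the 6 was 29176, 46925 and 25862 in knockout glands and 24014, 40443 and 41464 in wild-type glands. With the mean white fat marker level as a covariate, the change of Scd1 was -1.29 (limma adjusted p = 0.606) and that of Fasn was -0.56 (adjusted p = 0.491), and 0 of the 9 genes passed. In the same fit the positive changes of Elovl6, Srebf1 and Dgat1 were 0.0060, 0.078 and 0.088, against 0.42, 0.33 and 0.31 without the covariate. Those of Acly, Gpam, Scd2 and Me1 were -0.39, -0.45, -0.19 and -0.13, against -0.25, -0.53, -0.01 and -0.04 without it. The marker level was 11.9, 12.4 and 12.2 on the knockout arrays and 11.8, 12.0 and 12.1 on the wild-type arrays. With 6 arrays that fit cannot separate fat from genotype, and the part of fat in the spread of these genes was not tested.

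**Figure D4:**
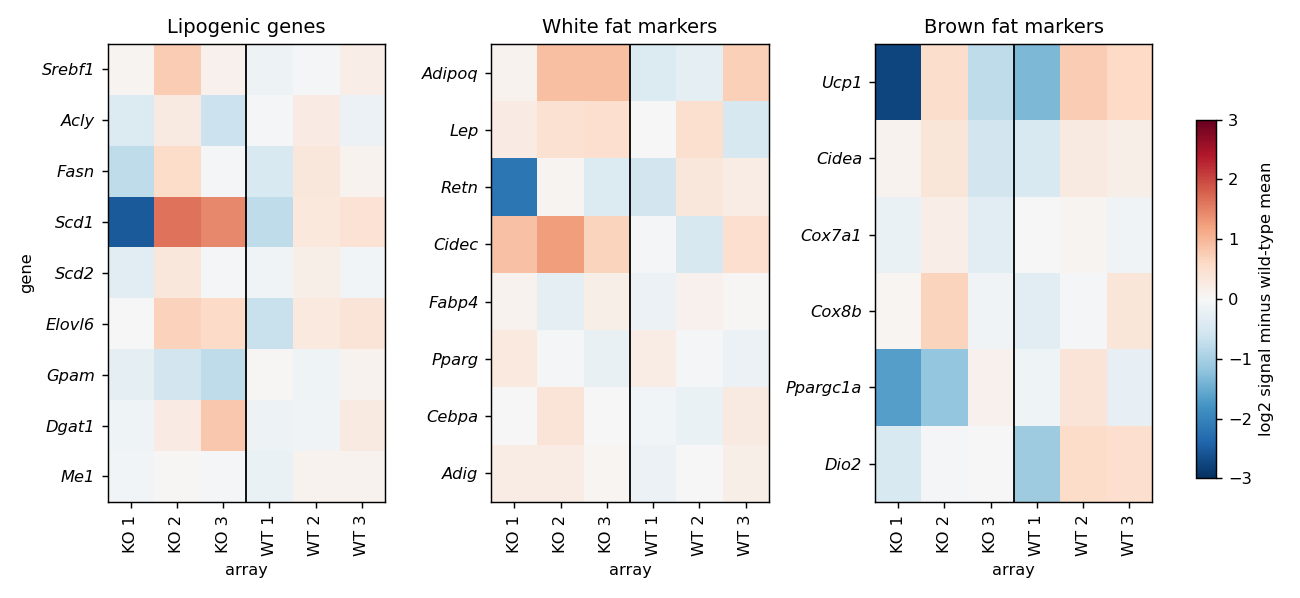
Log2 signal of each gene on each array minus its wild-type mean (colour, red above and blue below, same scale from -3 to 3), for the lipogenic genes, white fat markers and brown fat markers; KO is Chga knockout and WT wild type. Scd1, Retn and Ucp1 are darkest blue on knockout array 1.

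No marker of the gland itself passed. Of 8 cortex markers tested, among them the steroid enzyme genes Cyp21a1 and Hsd3b1, and 6 medulla markers tested, among them Chgb and the adrenaline enzyme gene Pnmt, 0 passed in limma, and their median log2 changes were 0.06 and 0.21. The cortex markers summed to between 583113 and 661596 in knockout glands and between 547151 and 662878 in wild-type glands, and the medulla markers to between 192737 and 205552 in knockout glands and between 161962 and 179822 in wild-type glands. Of the 6 medulla markers, 5 had positive log2 changes, among them Th (0.12) and Scg2 (0.15), and Pnmt had -0.23 (limma adjusted p = 0.8, 0.754 and 0.681). The separation of the sums rested on Chgb, with 93585, 120199 and 98209 in knockout and 69305, 77123 and 76132 in wild-type glands (limma adjusted p = 0.23). The other 5 medulla markers summed to 99152, 85353 and 98368 in knockout and 110517, 84839 and 87000 in wild-type glands, with overlapping groups. Among them Phox2a, a transcription factor of such cells, was dim, at 813, 1071 and 1080 in knockout and 905, 221 and 716 in wild-type glands. Skeletal muscle markers summed to 4459, 67845 and 33090 on the knockout arrays and 4299 to 4938 on the wild-type arrays. Knockout arrays 2 and 3, the arrays of high Scd1, thus also had the highest muscle marker sums. Acta1, the skeletal actin gene, read 565, 32131 and 13869 in knockout and 180, 180 and 29.1 in wild-type glands (log2 change 5.73, limma adjusted p = 0.153). Acta1 passed the brightness filter only through its knockout values. Not every muscle marker was higher: Myh4 and Ckm had log2 changes of -0.08 and -0.17 (limma adjusted p = 0.937 and 0.848). Of 6 muscle and 3 liver markers tested 0 passed, and the 7 liver markers on the array summed to 16966, 36197 and 26129 in knockout and 15855, 13635 and 35248 in wild-type glands. Most of that sum was Cyp2e1, a cytochrome P450 gene, with 14776, 30758 and 21090 in knockout and 13477, 10341 and 32507 in wild-type glands. Alb, the albumin gene that defines liver, read 504, 2909 and 2811 in knockout and 709, 678 and 832 in wild-type glands, so that it too was high on knockout arrays 2 and 3 (log2 change 1.11, limma adjusted p = 0.508). Other liver markers did not follow Alb. Cps1 read 575, 921 and 949 in knockout and 662, 1391 and 877 in wild-type glands (log2 change -0.22, limma adjusted p = 0.838). For Cps1 and Cyp2e1, knockout arrays 2 and 3 lay inside the wild-type range. The part of such RNA in the values of the 9 genes was not tested.

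Other genes of the pathway were followed as lists, in 5 lists with 41 tested genes, each read by its brightest probe set. Of these 0 passed in limma and 4 had an unadjusted p under 0.05. Groups that did not overlap were seen for 9 of the 41. Over all tested probe sets 16.4% had such groups, 7.55% with all knockout arrays above and 8.83% with all below. Among enzymes that supply acetyl-CoA and NADPH, 0 of 8 passed, 7 of 8 values were negative and the median log2 change was -0.20. Idh1, the cytosolic NADP-dependent isocitrate dehydrogenase, read 16685, 16690 and 15754 in Chga knockout glands and 25699, 21140 and 20486 in wild-type glands, groups that did not overlap (log2 change -0.45 ± 0.13, limma adjusted p = 0.27). Taldo1, the transaldolase of the pentose phosphate pathway, read 13330, 11983 and 11859 in knockout glands and 16425, 15844 and 15166 in wild-type glands, again without overlap (log2 change -0.35 ± 0.12, adjusted p = 0.359). For Tkt, the transketolase of the same pathway, the value was -0.64 ± 0.27 with overlapping groups (adjusted p = 0.418). The median over all tested probe sets was -0.01, and 11.3% of them had an unadjusted p under 0.05, as 3 of these 8 did. Over all 5 lists 4 of 41 genes had such a p, which is near that share.

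Elongation and desaturation genes beyond the 9 had 0 of 5 tested past the threshold, with a median log2 change of -0.13. Fads1, the delta-5 desaturase of polyunsaturated fatty acids, read 17218, 29870 and 23653 in knockout glands and 25765, 26308 and 28736 in wild-type glands (log2 change -0.23, limma adjusted p = 0.688), again with knockout array 1 lowest. Elovl5 and Elovl1 had log2 changes of -0.13 and -0.42 (adjusted p = 0.747 and 0.792). Glycerolipid assembly genes had 0 of 9 past the threshold and a median of -0.07. For Agpat1, the acyltransferase that follows Gpam in the pathway, the log2 change was -0.45 ± 0.21 (limma adjusted p = 0.466). For the phosphatidate phosphatase gene Lpin1 it was 0.37 ± 0.18 and for the acyl-CoA synthetase gene Acsl5 -0.30 ± 0.15 (adjusted p = 0.484 each), both with groups that did not overlap.

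Regulators of lipogenesis had 0 of 10 past the threshold and a median log2 change of -0.12. Mlx, the partner of the carbohydrate-responsive factor ChREBP, had 3 knockout values below all wild-type values, 3859, 3848 and 4221 in knockout against 4928, 4730 and 4421 in wild-type glands (log2 change -0.24 ± 0.14, limma adjusted p = 0.542). Thrsp, a nuclear protein tied to lipogenesis in liver and fat, read 9335, 19473 and 9648 in knockout glands and 9698, 18446 and 16308 in wild-type glands (log2 change -0.24, adjusted p = 0.806). Usf1 and Usf2, which bind E-boxes, had log2 changes of -0.38 and -0.26 (adjusted p = 0.557 and 0.673). Insig1, which holds SREBP proteins in the endoplasmic reticulum, was read by 1 dim probe set at 26.4, 18.9 and 139 in knockout glands and 26.8, 57.0 and 13.8 in wild-type glands, and was not tested. Srebf2, Acss2, Dgat2 and Fads2 had no probe set under their symbols and were not analysed here.

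Dimmer probe sets of these list genes did not always follow the brightest one. Of 9 such probe sets tested 0 passed in limma, and 3 had an unadjusted p under 0.05, where 11.3% of all tested probe sets had such a p. All 3 were lower in the knockout, and they were picked with their values in view. For Hacd3, a dehydratase of fatty acid elongation, 93212_at read 3078, 1042 and 984 in Chga knockout glands and 5372, 4757 and 4039 in wild-type glands (log2 change -1.66, limma adjusted p = 0.169), against a log2 change of 0.04 by the brighter probe set. For Acsl4, an acyl-CoA synthetase, 104017_at read 1223, 621 and 854 in knockout glands and 1601, 2177 and 1950 in wild-type glands (log2 change -1.11, adjusted p = 0.193), against 0.01 by the brighter probe set. In both the groups did not overlap, with all knockout arrays below, which 8.83% of all tested probe sets had. For Mid1ip1, a regulator of acetyl-CoA carboxylase, 95134_at read 2928, 1189 and 210 in knockout glands and 3019, 3962 and 2695 in wild-type glands, which overlapped (log2 change -1.78, adjusted p = 0.42), against -0.06 by the brighter probe set.

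Lipid storage and lipolysis genes had 0 of 9 past the threshold and a median log2 change of -0.04. Pnpla2, the lipase that opens triglyceride breakdown, read 24196, 28632 and 28040 in knockout glands and 22261, 18119 and 21749 in wild-type glands, all knockout arrays above (log2 change 0.38 ± 0.13, limma adjusted p = 0.384). Abhd5, its coactivator, read 2059, 1857 and 1703 in knockout glands and 2343, 2219 and 2924 in wild-type glands, all knockout arrays below (log2 change -0.40 ± 0.18, adjusted p = 0.445). For Fabp3, a fatty acid carrier, the value was 0.52 ± 0.25 with overlapping groups (adjusted p = 0.475).

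The cholesterol side of the SREBP pathway gave other counts in the same arrays. Of 15 sterol synthesis genes tested, 8 fell (Fdps, Hmgcs1, Sqle, Cyp51, Msmo1, Nsdhl, Hsd17b7 and Dhcr7), 0 rose and 7 did not pass (limma). Over all tested probe sets 0.282% passed as lower in the knockout. All 15 had every knockout array below every wild-type array, which 8.83% of all tested probe sets had. The list's median log2 change was -1.57, from -2.46 for Fdps, the farnesyl diphosphate synthase gene, to -0.32 for Mvk, the mevalonate kinase gene. Hmgcs1, whose promoter is printed above, read 6970, 6528 and 7072 in knockout glands and 18024, 23897 and 19900 in wild-type glands (log2 change -1.58, adjusted p = 0.000991). The 9 lipogenic genes ranged from -0.53 for Gpam to 0.42 for Elovl6. The difference between the lists was not tested, since both were chosen with earlier results of these arrays known.

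**Figure D5:**
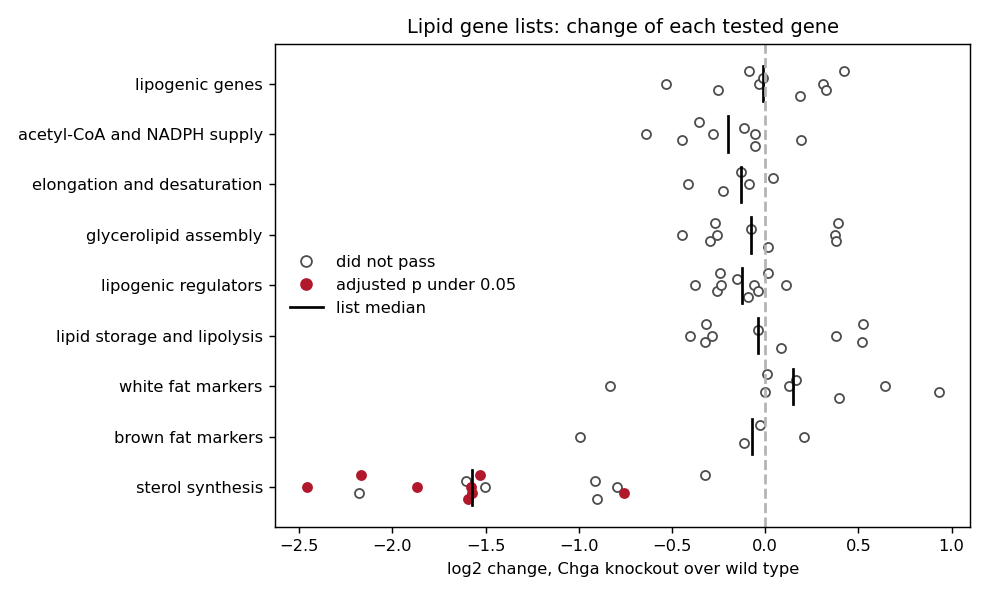
Log2 change, Chga knockout over wild type, of each tested gene (brightest probe set) in 9 lipid gene lists, with filled red points for limma adjusted p under 0.05 and a vertical bar at each list's median. The 8 filled points all lie in the sterol synthesis list, between -2.46 and -0.76.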

How the data were processed

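Adrenal RNA of 6 mice was measured on single-colour arrays, and genotype was taken from the sample titles. The deposited values are linear intensities per probe set, for which the submitters' processing notes name MAS5 without a version or scaling target. After trimming 2% of probe sets at each end, the mean was 2501 on every array, and array medians ran from 953 to 1092, so no further normalization was applied. Symbols came from the platform annotation and were updated by Entrez identifier. Of 12422 probe sets other than 66 controls, 10833 had 1 symbol, 396 several and 1193 none, and 16 symbols found no match.

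Signals were taken as log2(signal + 16), which understates changes of dim genes. The filter dropped probe sets whose mean fell below the 40th percentile (a signal near 582) and left 7453. That mean was taken over all 6 arrays, so a probe set dim in 1 genotype could pass through the other. For such probe sets the filter favours a change in that direction. The dimmer Dgat1 probe set and Acta1 passed in this way through the knockout, and Hsd17b7 through the wild type. The test was that of limma 3.58.1 run in R 4.3.3 (lmFit, eBayes with intensity trend, two-sided, Benjamini-Hochberg over all tested probe sets). The fit was first run on simulated arrays with known changes. Their noise was independent between arrays and its spread was capped, so a spread like that of Scd1 was not covered. A gene was represented by its probe set of highest mean. Every adjusted p is from limma. Errors are SD for signals and SE for log2 changes. The number of arrays limits the precision, and p-values measure the spread between these animals.

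The 10 genes and all lists were chosen with earlier results of these data known. The naming rule took all 10 genes, Thrsp, Insig1, list genes past the threshold, otherwise the 3 of smallest unadjusted p in each lipid list, and up to 4 bright genes of each marker list. Cidec, Retn, Pparg, Phox2a, Mvk, Acta1, Ckm, Dio2, Ppargc1a and the dimmer probe sets of Hacd3, Acsl4, Mid1ip1 and Ucp1 were picked outside it with their values in view. Alternatives covered the pseudocount, filter, scaling, test variant, array weights, replicate block, covariates, probe set choice and arrays left out.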

Additional observations from a re-analysis of the deposited data

How the results depend on the processing

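In 0 of the 20 other settings did any of the 9 genes pass the threshold (limma), and the lowest adjusted p was 0.0563, for Scd1 without knockout array 1. The signs of Acly, Gpam and Srebf1 held in all 20. With knockout array 1 alone, Scd1 was -2.51, Dgat1 -0.13 and Elovl6 -0.00087, and with the 3′ to 5′ Gapdh ratio as a covariate they were -2.94, -0.21 and -0.058. Both fits rest on much the same contrast, since the ratio was high on knockout arrays 2 and 3 only. Scd1 was -1.29 with the white fat covariate, and Scd2 was 0.0099 after median scaling and 0.066 with array weights. When single arrays were left out, changes ran from -0.53 to 1.54 for Scd1, -0.40 to 0.24 for Fasn, -0.18 to 0.15 for Scd2, -0.14 to 0.020 for Me1, -0.52 to -0.063 for Acly, 0.11 to 0.45 for Srebf1, 0.091 to 0.63 for Elovl6 and 0.060 to 0.53 for Dgat1. The causes were not tested.

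The count of all probe sets called, 33, was 17 with eBayes without trend, 13 with knockout array 1 alone, 12 with the Gapdh ratio covariate and 15 to 141 when an array was left out (15, 17 and 21 without knockout array 3, wild-type array 2 and wild-type array 3, and 141 without knockout array 1). With the replicate block it was 57. The labels do not say whether the numbers pair the arrays. Deviations of same-numbered arrays correlated at 0.255 for number 1, -0.0352 for number 2 and -0.0389 for number 3. Of the 6 arrays, 2 correlated best with their own number in the other genotype. Whether the number 1 arrays shared a batch was not tested.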
